A study of Mus musculus with 4 samples.

Results

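The miR-379 to miR-410 cluster is a run of miRNA hairpins in the imprinted Dlk1-Dio3 region of mouse chromosome 12. Its members were the rows of the deposited tables whose name, without the arm mark, was among 36 miRNA names of this cluster. There were 49 such rows among the 590 miRNAs listed in any library, and 1 name, miR-654, had no row. The 49 rows came from 35 hairpins, with both arms listed for 14. The libraries hold small RNA of synovial fibroblasts grown in culture, the connective tissue cells of the joint lining, of mice aged 8 weeks on a mixed CBA/J * C57BL/6/J background. The TghuTNF group carried a human TNF transgene and the wild type (WT) group consisted of littermates without it, with 2 biological replicates each per the series design. All cultures were at passage 4, and no treatment is named in the labels. The sources used here do not state the promoter of the transgene or how many mice went into a culture. The study asked which miRNAs differ between fibroblasts of the arthritic transgenic mice and healthy fibroblasts.

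The cluster is found in placental mammals and is transcribed from the maternal chromosome only. Its hairpins are cut from long non-coding RNAs that run through the region in the same direction, so many mature miRNAs can arise from 1 transcription unit. The members are known mostly from the brain, where neuronal activity raises them, and from embryonic and mesenchymal tissue. Several hairpins are known targets of A-to-I editing, which an aligner reads as an A-to-G mismatch. Each mature miRNA guides an Argonaute protein to messenger RNAs that pair with its seed, bases 2 to 8.

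In RefSeq on GRCm38.p6 the 35 hairpins spanned 34.7 kb, chr12:109709060-109743795, and 35 lay on the plus strand. In GENCODE M21, 12 of them lay in the long non-coding RNA gene Mirg (chr12:109729764-109749460), 8 overlapping an exon and 4 in introns. The other 23, from miR-379 to miR-544, lay upstream of it outside annotated genes. Both miR-329 (hairpin at chr12:109713481-109713577) and miR-495 (chr12:109718754-109718816) lay in the upstream stretch.

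RefSeq held the mature sequence of 46 of the 49 members, matched by miRNA name and arm. The RefSeq table had no entry for miR-376c, miR-487b and miR-485. Those that the results below turn on are given 5′ to 3′ with the seed in capitals: the first and the last member, the pair that passed the test with a look-alike of miR-495, the member known from the study, and the miR-376 and miR-381 groups, which resemble each other within the cluster. 
miR-379: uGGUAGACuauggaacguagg
miR-410: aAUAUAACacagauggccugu
miR-323-3p: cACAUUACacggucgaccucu
miR-329: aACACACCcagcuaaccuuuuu
miR-495: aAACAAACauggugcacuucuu
miR-543: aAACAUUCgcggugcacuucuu
miR-376a*: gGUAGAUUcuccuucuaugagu
miR-376a: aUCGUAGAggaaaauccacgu
miR-376b*: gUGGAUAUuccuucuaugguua
miR-376b: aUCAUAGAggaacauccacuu
miR-376c*: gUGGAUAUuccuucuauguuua
miR-300: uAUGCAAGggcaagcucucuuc
miR-381: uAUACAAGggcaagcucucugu

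Only 1 seed was shared by 2 members, that of miR-376b* and miR-376c*, which differ at 1 of 22 bases. miR-376a and miR-376b differ at 3 of 21 bases with 1 of them in the seed, and miR-300 and miR-381 at 3 of 22 with 1 in the seed. miR-495 and miR-543 differ at 4 of 22 bases, 2 of them in the seed. Outside the cluster, the seed of miR-329 is that of miR-362-3p. The seed of miR-495 is shared with miR-1192 and miR-12200-5p, and that of miR-410 with miR-344d-3p and miR-344e-3p. The letters ACANGG, with N for any base, were searched for after the sequences had been read. They occurred in 10 of the 28 sequenced 3p arms, in 0 of the 18 sequenced 5p arms, and in 2.57% of the 1633 other mouse mature miRNAs of the table.

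Between 16680860 and 27362819 reads were matched to miRNAs per library. The tables allow up to 2 mismatches, and how a read that matches several similar miRNAs was counted is not given. CPM below are counts per 1000000 matches after TMM scaling, SD are over n = 2 libraries, and the error beside a log2 fold change is its standard error (SE). A count of 0 allows up to 3 counts, or 0.110 to 0.180 unscaled CPM depending on the library, and these limits cover counting error only. TghuTNF replicate 2 stood apart, with 11.7% of all its matches at 2 mismatches against 8.21% to 8.73% in the other 3 libraries. The 6 listed fibroblast markers of 7 summed to 277353 to 301907 unscaled CPM in WT and 286110 to 298966 in TghuTNF, with none of the 6 at 0. Of the 6, 1 was called lower by edgeR, 0 were called higher, and the log2 fold change was positive for 2.

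The members together held 0.389% of all matches (0.386% to 0.392%, exact 95% binomial interval) in the first WT library and 0.404% (0.402% to 0.406%) in the second. They held 0.475% in TghuTNF replicate 1 (0.472% to 0.477%) and 0.670% in TghuTNF replicate 2 (0.667% to 0.674%). Both transgenic libraries were thus above both WT libraries, by an unequal amount. The means were 0.397% ± 0.0103 and 0.572% ± 0.138 (SD, n = 2), a ratio of 1.44. With 2 libraries against 2, an exact two-sided permutation test cannot give a p below 0.333. More cells of a type that holds these miRNAs and more of these miRNAs per cell cannot be told apart in such bulk cultures.

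Levels differed widely between hairpins of this cluster, even though neighbours can share a transcript. miR-379, the first hairpin, had 2127 and 2134 CPM in WT and 2540 and 3874 in TghuTNF, and it took 53.8% to 56.7% of the member matches. The next in level were miR-541, miR-134, which limits dendritic spine growth in neurons, miR-382 and miR-411. This order counts mismatched matches too. Of the matches of miR-541, 50.1% were perfect and 38.3% had 2 mismatches, while 72.2% of those of miR-134 were perfect. The 8 most abundant members, which also include miR-300, miR-494 and miR-369-3p, held 93.0% of the member matches. Of all 49 members, 17 had a mean of at least 10 CPM, 22 lay between 1 and 10, and 10 were below 1. Abundant and scarce hairpins alternated along the cluster: miR-323 at 2.62 CPM summed over its arms lay 3.4 kb from miR-379, and miR-541 at 690 CPM lay 33.3 kb from it. Over the 35 hairpins, which share these 4 libraries, Spearman's rho between order and level was 0.074, given as a description only. CPM is a read count not divided by length, which differs little between mature miRNAs, and ligation and PCR can favour some of them.

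**Figure D1:**
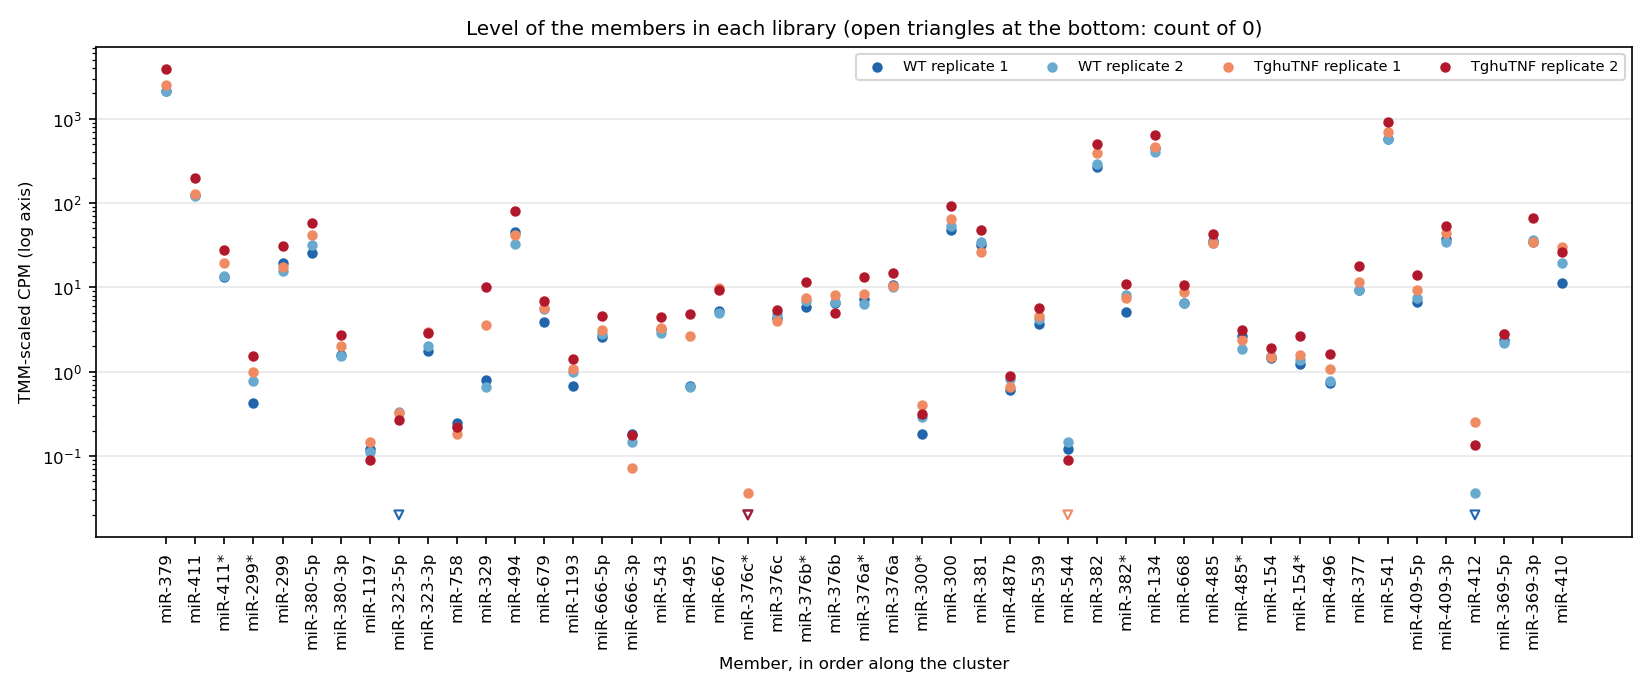
TMM-scaled CPM (log axis) of the 49 members in order along the cluster, with 1 point per library and open triangles for a count of 0. miR-379 is highest in every library, and miR-329 and miR-495 have the 2 largest fold changes among members past the filter.

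Of the 49 members, 41 passed the filter on low counts. The other 8 (miR-1197, miR-323-5p, miR-758, miR-666-3p, miR-376c*, miR-300*, miR-544 and miR-412) had at most 11 reads in any library and were not tested. Of the 41 tested, 2 rose in TghuTNF fibroblasts with edgeR's quasi-likelihood test, miR-329 and miR-495, against 4.75% of all 442 miRNAs tested that were called higher. None was called lower, against 8.6% of all tested. Only 1 member, miR-376b, had a negative log2 fold change, with an unadjusted edgeR p of 0.97. On the same counts, DESeq2 and limma-voom also called 0 members lower, beside 43 and 37 of all 442 miRNAs. These fits are not independent of that by edgeR. A further 39 members did not pass, 10 of them with a positive log2 fold change and an unadjusted p under 0.05. With the 2 called, 12 of 41 members had such a p, all positive, beside 128 of all 442 miRNAs, 52 of them positive.

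The log2 fold change was positive for 40 of the 41 members, with a median of 0.55, beside a median of 0.0056 over all 442 miRNAs. Both transgenic libraries lay above both WT libraries for 29 of the 41 members, against 30.8% of all miRNAs tested, and below both for 0, against 29.9%. The members are not independent of each other, since they share libraries and largely a transcription unit. The transgenic cultures differed from each other. Relative to the WT mean, the median member lay 0.26 higher on the log2 scale in TghuTNF replicate 1 and 0.69 higher in TghuTNF replicate 2, and 36 of 41 members were higher in the latter, as were 221 of all 442 miRNAs. Without TghuTNF replicate 2, which is also the library with more 2-mismatch matches, the median was 0.26 and 33 members were positive. Without TghuTNF replicate 1 the median was 0.82, and 27 members were called higher beside 84 of all 442 miRNAs. Each of these fits leaves 1 transgenic library, assumed to vary like the WT libraries.

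**Figure D2:**
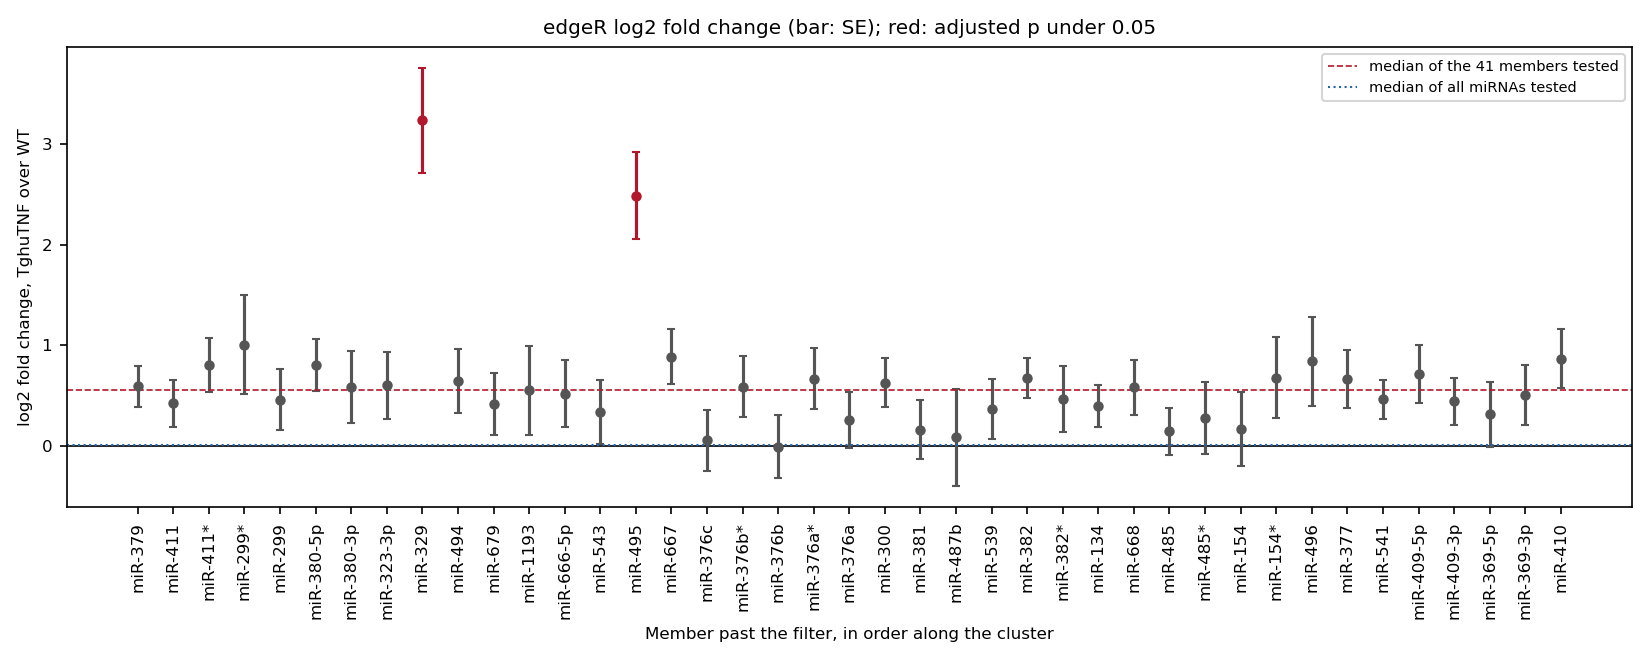
edgeR log2 fold change (TghuTNF over WT) with SE of the 41 tested members in order along the cluster, with the medians of the members and of all 442 miRNAs as lines. Most members lie near the members' median of 0.55, while miR-329 and miR-495, in red, lie at 3.24 and 2.48.

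miR-329, with the seed of miR-362-3p, had 0.79 and 0.66 CPM in WT, beside 3.55 and 10.1 CPM in TghuTNF. These values rest on 13 and 18 reads against 98 and 228. The transgenic values did not overlap with the WT values, and the higher of them was the library with more mismatches. The mean went from 0.73 ± 0.092 to 6.84 ± 4.65 CPM (SD, n = 2). This was 9.42-fold, or 3.24 ± 0.52 (SE) as a log2 fold change (edgeR adjusted p = 0.0020). It was 2.30 without TghuTNF replicate 2 and 3.87 without TghuTNF replicate 1, and over 13 alternatives it ranged between these values with adjusted p-values up to 0.011. Pooled over the libraries of a genotype and scaled, perfect matches alone were 11.1 times as frequent in TghuTNF (exact 95% interval 6.59 to 20.3, counting error only), and 1-mismatch matches 6.91 times (4.02 to 12.7).

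miR-495 showed the same order of libraries, with 0.67 and 0.66 CPM in WT and 2.64 and 4.88 in TghuTNF, from 11 and 18 reads against 73 and 110. The genotypes did not overlap, and the WT libraries were almost equal. The log2 fold change was 2.48 ± 0.43 (SE), or 5.60-fold (edgeR adjusted p = 0.0027), and 1.98 to 2.92 over the fits that leave out 1 library. Its perfect matches were 5.22 times as frequent in TghuTNF (3.11 to 9.32). The look-alike miR-543 had 3.23 and 2.90 CPM in WT against 3.30 and 4.44 in TghuTNF, a log2 fold change of 0.34 ± 0.32 that did not pass.

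The 5 members tested from hairpins between miR-329 and miR-495 (miR-494, miR-679, miR-1193, miR-666-5p and miR-543) had log2 fold changes of 0.34 to 0.64. None of them passed. miR-362-3p, encoded on another chromosome with the seed of miR-329, had 1.34 and 1.65 CPM in WT and 1.52 and 1.15 in TghuTNF (log2 fold change -0.17 ± 0.39).

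miR-323-3p is the member that the study is known to have reported from these mice, as a repressor of the ubiquitin ligase gene Btrc in the Wnt pathway. It was scarce, with 1.77 and 2.02 CPM in WT and 2.93 and 2.84 in TghuTNF, from 29 and 55 reads against 81 and 64. The transgenic values were above the WT values and close to each other. The log2 fold change was 0.60 ± 0.33 (SE), near the members' median, and did not pass (edgeR adjusted p = 0.25, with adjusted p-values of 0.15 to 0.76 over 13 alternatives, DESeq2 and limma-voom among them). Its opposite arm, miR-323-5p, had 6 to 9 reads in 3 libraries and was not listed in WT replicate 1.

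The abundant members were higher in the transgenic libraries without passing the test. miR-379 had a log2 fold change of 0.59 ± 0.20 (edgeR adjusted p = 0.085). It was 0.25 without TghuTNF replicate 2, and 0.92 without TghuTNF replicate 1, where it passed (edgeR adjusted p = 0.00041). miR-382 stood at 269 and 294 CPM in WT and at 392 and 505 in TghuTNF (0.67 ± 0.20, edgeR adjusted p = 0.051), and miR-541 at 584 and 577 against 692 and 905 (0.46 ± 0.19). miR-134 had 450 and 403 CPM in WT and 467 and 652 in TghuTNF (0.39 ± 0.21). In all 4 of these the genotypes did not overlap, and TghuTNF replicate 2 was the highest library. miR-411 (0.42 ± 0.24) and miR-300 (0.63 ± 0.24) showed the same. In 2 others, TghuTNF replicate 2 alone stood out. miR-494 had 45.5 and 33.2 CPM in WT and 41.7 and 81.3 in TghuTNF. miR-369-3p, known for its site in the AU-rich element of the TNF messenger RNA, had 34.3 and 36.8 against 34.8 and 65.9. Without TghuTNF replicate 2 their log2 fold changes were 0.085 and -0.030, against 0.64 and 0.50 with all libraries.

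miR-667 and miR-410 were among the 5 tested members with the higher value in TghuTNF replicate 1. miR-667 had 5.29 and 5.03 CPM in WT and 9.85 and 9.23 in TghuTNF (log2 fold change 0.89 ± 0.27, edgeR adjusted p = 0.055). It passed without TghuTNF replicate 2 (0.93, edgeR adjusted p = 0.019) and without TghuTNF replicate 1 (0.90, edgeR adjusted p = 0.0083), but not without either WT library. It also passed with DESeq2 (adjusted p = 0.028), with TMM factors computed without the members (edgeR adjusted p = 0.047) and without the filter (edgeR adjusted p = 0.038). With perfect matches only, miR-667 was at 0.65 and did not pass (edgeR adjusted p = 0.20). Its share of perfect matches was 64.4% and 53.3% in WT and 47.4% and 51.4% in TghuTNF. miR-410, the last hairpin of the cluster, had 11.4 and 19.7 CPM in WT and 30.2 and 26.6 in TghuTNF (0.87 ± 0.29, edgeR adjusted p = 0.080). It passed without TghuTNF replicate 2 (0.95, edgeR adjusted p = 0.0034), without TghuTNF replicate 1 (0.82, edgeR adjusted p = 0.0100) and without WT replicate 2 (1.32, edgeR adjusted p = 0.032). Without WT replicate 1 it stood at 0.55 (edgeR adjusted p = 0.58). The larger value of miR-299*, 1.00 ± 0.49, rested on 7 to 35 reads per library and did not pass.

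**Figure D3:**
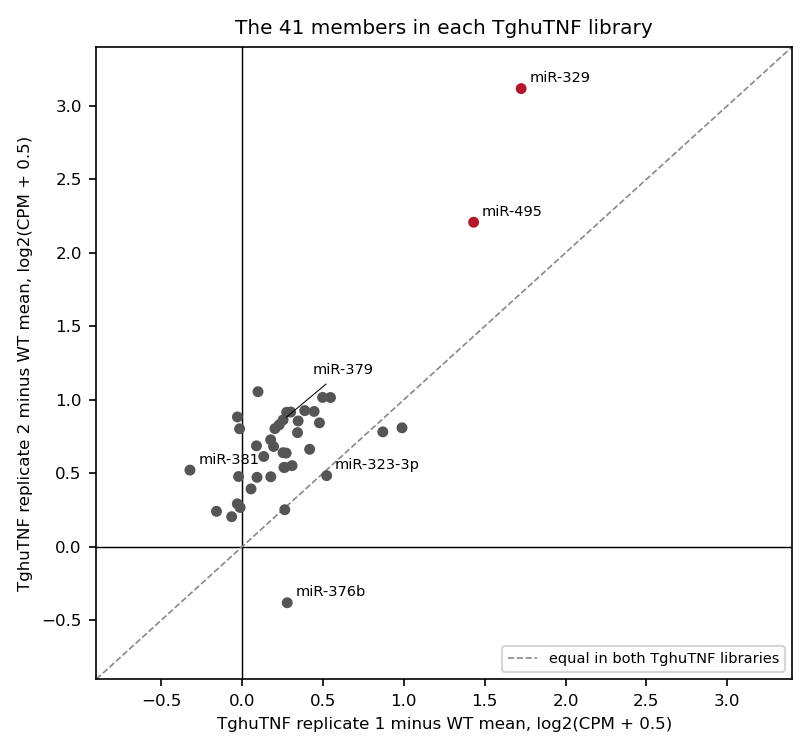
Each of the 41 tested members by its log2(CPM + 0.5) minus the WT mean in TghuTNF replicate 1 (x axis) and TghuTNF replicate 2 (y axis), with red points for miR-329 and miR-495 and a dashed line where both libraries are equal. 36 members lie above the line, and miR-376b lies furthest below it.

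The 3p arms of the miR-376 group, a group whose edited form is known to take other targets, were among the members closest to no difference. miR-376b had 6.45 and 6.69 CPM in WT and 8.08 and 4.93 in TghuTNF, and was the 1 member with a negative log2 fold change (-0.012 ± 0.31). Its highest and its lowest value were both transgenic. miR-376c (0.054 ± 0.30) and miR-376a (0.26 ± 0.28) also overlapped between genotypes. Of the 5p partners, miR-376b* did not overlap, with 5.90 and 6.83 CPM in WT against 7.53 and 11.7 in TghuTNF (0.59 ± 0.30). Nor did miR-376a*, with 7.30 and 6.43 against 8.40 and 13.4 (0.66 ± 0.30), and neither passed. Only 5.56% of the matches of miR-376a* were perfect, so its row may not measure that arm. The 5p partner of miR-376c, miR-376c*, had 1 read in TghuTNF replicate 1 and 0 elsewhere, and was not tested. miR-381 (0.16 ± 0.29) had 32.1 and 34.5 CPM in WT and 26.6 and 48.0 in TghuTNF, so the transgenic libraries lay on either side of WT. Of the other tested members, miR-485 (0.14 ± 0.24), miR-154 (0.17 ± 0.37) and miR-487b (0.082 ± 0.49) lay lowest.

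By position, the 25 tested members upstream of Mirg had a median log2 fold change of 0.58 and the 16 within Mirg one of 0.48. By arm, the medians were 0.49 for 16 members from 5p arms and 0.58 for 25 from 3p arms. By level, they were 0.50 for the 17 members of at least 10 CPM and 0.56 for the 24 scarcer ones. These are descriptions, and the differences between the groups were not tested.

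The ratio of the arms of a hairpin does not depend on the scaling of the libraries. Of 10 member hairpins with both arms past the filter, 0 had a changed ratio by limma, against 0% of 106 hairpins tested, and 0 of the 10 and 6 of the 106 had an unadjusted p under 0.05. The 5p arm led in mir-411, mir-380, mir-382 and mir-485 (log2 ratios of 2.74 to 5.73) and the 3p arm in mir-299, mir-409 and mir-369 (-5.40 to -1.94). The ratios of mir-411 and mir-382 rest on 3p rows with under 1% perfect matches, described below, and may not measure those arms. The same limit holds for mir-380, mir-485 and mir-376a. Their rows miR-380-3p, miR-485* and miR-376a* had 4.35%, 6.96% and 5.56% perfect matches. In RefSeq, miR-299b-3p matches miR-299 and miR-299b-5p matches miR-299* with 0 mismatches, the latter shifted by 1 base. The rows of mir-299 can thus hold reads of another hairpin, and 30.4% of the matches of miR-299 were perfect. Its difference between genotypes was 0.66 ± 0.39 (SE, limma adjusted p = 0.72), and 0.14 with perfect matches only. With perfect matches only, 6 member hairpins were left, without mir-411, mir-380, mir-382 and mir-485. In mir-376a, mir-376b and mir-154 the arms were within a log2 ratio of 1.24 of each other. mir-376b had log2 ratios of -0.13 and 0.031 in WT and -0.10 in TghuTNF replicate 1, but 1.24 in TghuTNF replicate 2. The latter library held 263 reads of miR-376b* and 111 of miR-376b. The difference between genotypes was 0.62 ± 0.45 (SE, limma adjusted p = 0.82), and -0.052 without that library.

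**Figure D4:**
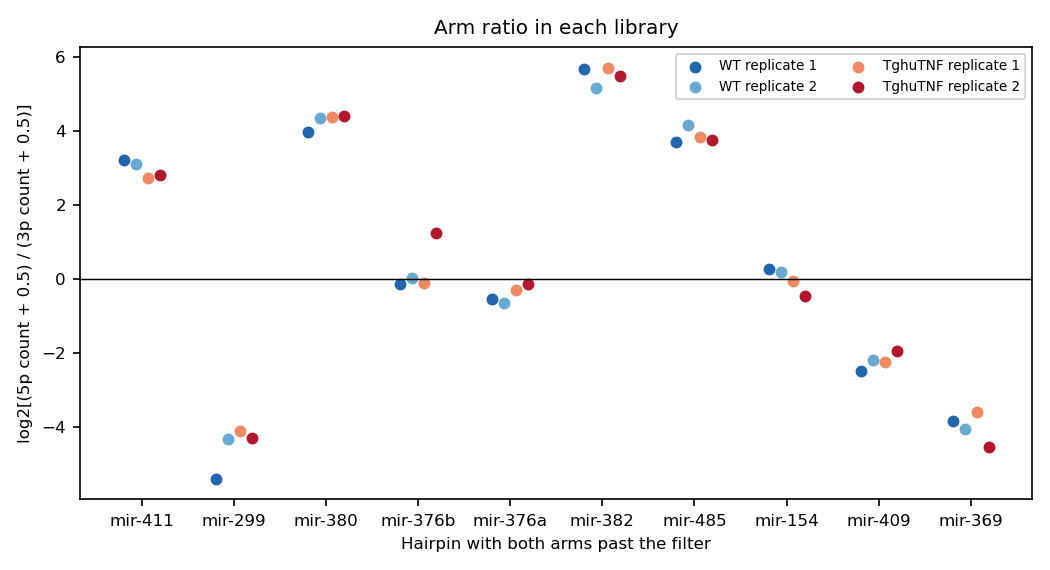
log2 ratio of 5p to 3p arm counts (pseudocount 0.5) of the 10 member hairpins with both arms past the filter, with 1 point per library. The ratios range from -5.40 to 5.73 between hairpins. Between libraries, mir-376b in TghuTNF replicate 2 at 1.24 and mir-299 in WT replicate 1 at -5.40 lie furthest apart from the rest. Smaller spreads are seen in mir-369 (-4.55 to -3.61) and mir-154 (-0.45 to 0.26).

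The mismatch classes are a readout that the choice of members did not use. Over the 27 members with a mean count of at least 100, the share of perfect matches ranged from 0.45% to 94.9%, with a median of 79.0% beside 67.4% over all 307 miRNAs of that depth. Under 5% were perfect for 2 members, miR-411* (0.45%) and miR-382* (0.66%), and for 29 of the 307. The RefSeq sequence of miR-411* differs at 2 bases from miR-379-3p, the opposite arm of the abundant miR-379, which has no row of its own in the tables. Reads of that arm can therefore be among the mismatched matches of miR-411*. Of the matches of miR-411*, 63.5% had 1 mismatch and 36.0% had 2, and only the 0.45% perfect matches set the arms apart. In miR-376a* 89.4% of matches had 1 mismatch and 5.56% were perfect, while miR-376a from the same hairpin had 84.0% perfect matches. The tables do not give the position or the base of a mismatch, and the sources used here do not state which reference sequences the authors matched to. Whether edited reads are among the mismatches was not tested.

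The share of perfect matches of miR-376a* was 5.00% and 5.71% in WT and 6.47% and 4.98% in TghuTNF. The overlap of the genotypes was similar for miR-379, with 82.3% and 83.3% against 83.0% and 78.5%, and for miR-411, with 82.8% and 84.0% against 83.5% and 79.5%. Of the 27 members, 0 had changed odds of a perfect match by limma, against 0% of the 307 miRNAs tested, and 1 of the 27, miR-376c, and 14 of the 307 had an unadjusted p under 0.05. miR-376c had 88.7% and 86.9% perfect matches in WT and 82.0% and 81.3% in TghuTNF and did not pass (limma adjusted p = 0.83). TghuTNF replicate 2 had the lowest perfect share of the 4 libraries for 20 of the 27 members and for 203 of all 307 miRNAs.

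**Figure D5:**
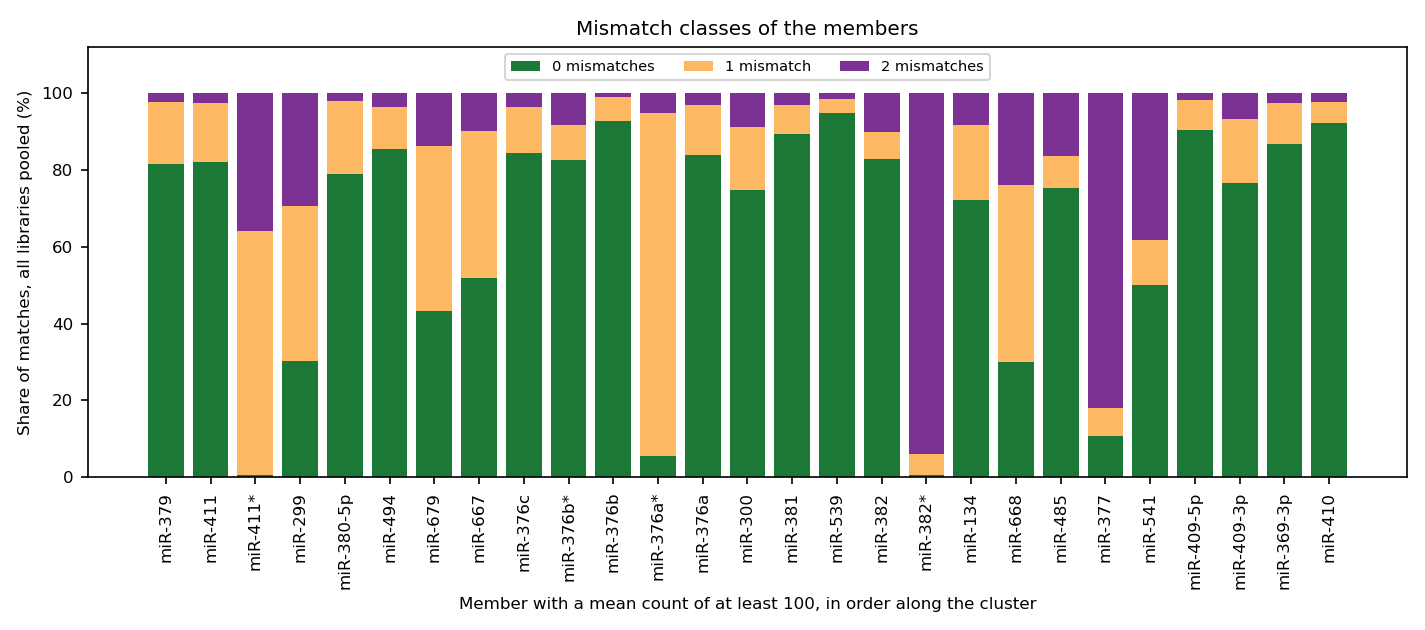
Share of matches with 0, 1 and 2 mismatches, all libraries pooled, for the 27 members with a mean count of at least 100, in order along the cluster. Perfect matches exceed 50% for 20 members, while miR-411* and miR-376a* are mostly 1-mismatch and miR-382* and miR-377 mostly 2-mismatch matches.

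The remaining miRNAs of the Dlk1-Dio3 region, among them those antisense to the imprinted gene Rtl1, were set beside the cluster. Of 23 listed, 22 were tested, 7 had an unadjusted p under 0.05, and 20 had a positive log2 fold change. Over all 442 miRNAs, 128 had such a p and 224 a positive value. Of the 22, 0 were called by edgeR in either direction, against 13.3% of all tested. Both transgenic libraries lay above both WT libraries for 13 of them, against 30.8% of all tested, and below both for 0, against 29.9%. The median of the 22 was 0.56, beside 0.55 for the cluster. In the first transgenic library their median was 0.25 over the WT mean and in the second 0.68, beside 0.26 and 0.69 for the cluster. miR-127, which represses Rtl1 in placenta, stood at 787 and 939 CPM in WT and at 1107 and 1632 in TghuTNF (log2 fold change 0.67 ± 0.21). The difference between the lists was not tested.

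Markers of other cell types were read beside these values, because the cluster is abundant in neurons. All sums of markers are in unscaled CPM. The 6 neural miRNAs, all listed, summed to 284 to 320 CPM in WT and 430 to 463 in TghuTNF. Of them 4 were tested, 3 had a positive log2 fold change and 1 was called higher, and miR-124 was at 0 in at least 1 library. The 6 blood cell miRNAs summed to 6.63 to 15.9 CPM against 21.2 to 29.1, with 1 of 3 tested called higher and miR-144 at 0 in at least 1 library. The 7 epithelial miRNAs summed to 66.7 to 72.7 against 30.1 to 37.1. Of the 4 tested 1 was called lower and the other 3 had positive log2 fold changes, and miR-200a and miR-429 were at 0 in at least 1 library. The 2 endothelial ones summed to 110 to 125 against 65.4 to 69.4, with 1 of 2 called lower, and the 4 muscle ones to 2390 to 3085 against 1749 to 2072, with 0 called. The part of these cells in the values of the cluster was not tested.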

How the data were processed

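Small RNA libraries of 4 fibroblast cultures were analysed from 1 deposited table per library. Per the file headers, the authors matched reads of 37 bases to 707 mouse mature miRNAs with mimap version 3d, allowing 2 mismatches with a hash length of 9. The deposited values are raw read counts per miRNA, with counts at 0, 1 and 2 mismatches beside them. Not given in the sources used here are the miRBase release, the trimming and how a read with several matches was counted. A miRNA not listed in a library was taken as 0.

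All miRNAs past filterByExpr were scaled with TMM and tested with edgeR 4.0.16 (quasi-likelihood, genotype only, two-sided, Benjamini-Hochberg adjustment over 442 miRNAs, threshold 0.05) in R 4.3.3. The SE of a log2 fold change is its size divided by the square root of F. Arm ratios (pseudocount 0.5, 106 hairpins) and odds of a perfect match (mean count of at least 100, 307 miRNAs) were tested with limma 3.58.1. Arms and hairpins were assigned by miRNA name, and sequences came from RefSeq on GRCm38.p6.

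The members, lists and tests were chosen with earlier results of these data known. Named members are miR-323-3p, those called, the 8 most abundant, the 5 with the largest log2 fold change in each direction, the known editing targets, hairpins with both arms tested, the ends of the cluster and members sharing a seed. Others are named to account for all members or were chosen after their values were seen (miR-543, miR-485, miR-154, miR-487b, miR-382*, miR-377). On simulated counts of this comparison (10 sets, 200 changed of about 435 tested), 70.4% of 2-fold and 99.2% of 4-fold changes were found by edgeR. Of its calls, 2.27% were false. All miRNAs and both genotypes were given a common dispersion. These shares therefore do not give the power for smaller changes or for members with a larger spread between replicates. limma recovered 91.3% of 4-fold arm ratio changes among 106 hairpins and 94.2% of 4-fold odds changes among 307 miRNAs. Of its calls, 3.52% were false for arm ratios and 5.61% for odds. The noise of the simulated odds was set by hand and not taken from the data. The alternatives were DESeq2 1.42.0, other scalings, filters and mismatch limits, limma-voom, leaving out each library, and a replicate block.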

Additional observations from a re-analysis of the deposited data

How the results depend on the processing

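miR-329 and miR-495 were called higher under every alternative that tested them, and 0 members were called lower under any of the 14 alternatives. The number called higher, 2 with edgeR, was 7 with DESeq2, 4 with TMM factors computed without the members, 8 without the filter and 2 to 27 when 1 library was left out. Over all miRNAs the calls went from 21 of 442 to 26, 23, 39 of 590 and 18 to 84. miR-667 and miR-382 were called in the first 3 of these settings, miR-410, miR-411* and miR-380-5p with DESeq2 and without the filter, and miR-379 without the filter. The row of miR-411* may hold reads of miR-379-3p. The number called higher was 0 with a mean of at least 10 CPM, a filter that removes miR-329 and miR-495. With the replicate number as a block it was 6, beside 34 of all 442, and the added members were miR-379, miR-380-5p, miR-382 and miR-410. The labels give no pairing beyond the number, and deviations of same-numbered libraries correlated with r = -0.088 over 442 miRNAs. The median of the members was 0.55, 0.26 to 0.82 when 1 library was left out and 0.45 to 0.62 otherwise. Upper quartile factors moved the median of all miRNAs to -0.10, and the members' median was then 0.45. Upper quartile factors left 38 of 41 members positive and leaving out TghuTNF replicate 2 left 33. Among the named members, none of those called changed sign, and these did: miR-376c with upper quartile factors (-0.060) and with perfect matches (-0.038), and miR-376b with TMM factors computed without the members (0.054), with perfect matches (0.0086) and with at most 1 mismatch (0.026). Leaving out 1 library gave -0.36 to 0.30 for miR-376b, -0.18 to 0.32 for miR-376c, -0.022 to 0.56 for miR-376a, -0.33 to 0.59 for miR-381 and -0.030 to 0.95 for miR-369-3p. Arm ratio differences then ranged from -0.075 to 0.44 (mir-382), -0.35 to 0.086 (mir-485), -0.59 to 0.34 (mir-369) and -0.052 to 1.29 (mir-376b), and that of mir-369 was 0.032 with perfect matches. No alternative called an arm ratio or perfect-match odds of a member. The causes were not tested. Depth limits the members under 1 CPM, where libraries held few reads.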

Other observations

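Taken as a share of the member matches alone, which needs no scaling between libraries, the 2 most abundant members moved little. These 2 also make up much of the total that they are divided by, which damps any change of their shares. miR-379 took 5379 and 5418 of 10000 member matches in WT and 5400 and 5670 in TghuTNF, and miR-541 took 1477 and 1466 against 1472 and 1325. miR-329 took 2.00 and 1.68 of 10000 in WT against 7.55 and 14.8 in TghuTNF, and miR-495 took 1.69 and 1.68 against 5.62 and 7.15. miR-376b took 16.3 and 16.97 in WT and 17.2 in TghuTNF replicate 1, but 7.21 in TghuTNF replicate 2. These shares were computed after the values had been seen, and no test was run on them.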
